A study of Mus musculus with 2 samples.

Results

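The Iroquois genes Irx1, Irx2, Irx3, Irx4 and Irx5 were followed across the cells of the embryonic mouse lower jaw. The 5 genes were chosen by symbol, from the 27998 genes listed for an E12.0 library and the 31053 listed for an E9.5 library, and all 5 were present in both lists. The study asked how the epithelium of the mandibular arch is divided into zones before teeth, salivary glands and tongue form. Each stage was profiled as 1 droplet single-cell library of 3′ ends, in which a unique molecular identifier (UMI) counts an RNA molecule once. The E12.0 library came from mandibular epithelium peeled off with dispase, pooled from 6 embryos of the same litter with the genotype K14Cre;R26mT/mG and sorted for GFP. In these embryos the Cre recombinase is driven by the keratin 14 promoter and turns on GFP in the epithelial cells that made it, so cells without recombination were not collected. The E9.5 library held whole mandibular arches, both epithelium and mesenchyme, unsorted and pooled from 8 embryos of the same litter with the same genotype. Neither library had a replicate, so no test was made, and stage cannot be told apart from library.

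Iroquois genes encode homeodomain transcription factors of the TALE class, in which the homeodomain carries an extra loop. In mammals they lie in 2 genomic groups of 3, one with Irx1, Irx2 and Irx4 and the other with Irx3, Irx5 and Irx6, and they are known for dividing tissues such as the neural tube, the heart and the limb into regions. Irx4 is best known from the ventricles of the heart, and Irx3 and Irx5 have overlapping roles in the heart and limb. On mouse genome build GRCm38, Irx1 (ENSMUSG00000060969) lies on the minus strand of chromosome 13 from 71957921 to 71963723. Irx2 (ENSMUSG00000001504, 72628820 to 72634198) and Irx4 (ENSMUSG00000021604, 73260479 to 73269608) lie on the plus strand of the same chromosome. Starts of Irx1 and Irx2 were 665 kb apart, and those of Irx2 and Irx4 632 kb apart. On chromosome 8, Irx3 (ENSMUSG00000031734, minus strand) runs from 91798525 to 91802067 and Irx5 (ENSMUSG00000031737, plus strand) from 92357625 to 92376286, with 556 kb between their starts. The antisense transcript Irx3os overlaps Irx3 and was counted separately, and whether the counting used strand is not given in the sources used here. It reached 1.57 CPM (UMIs of the gene per 1000000 UMIs of the group) in the E12.0 library against 62.2 CPM for Irx3.

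Irx2 and Irx4 are shown here because they are neighbours in the same genomic group and had opposite levels in the dental zone described next. Their sequences just before the transcript start come from RefSeq promoters on GRCm38.p6, on the plus strand, in lower case with each CG dinucleotide in capitals. The Irx2 stretch is chr13:72628570-72628819 and the Irx4 stretch is chr13:73260247-73260478.
Irx2: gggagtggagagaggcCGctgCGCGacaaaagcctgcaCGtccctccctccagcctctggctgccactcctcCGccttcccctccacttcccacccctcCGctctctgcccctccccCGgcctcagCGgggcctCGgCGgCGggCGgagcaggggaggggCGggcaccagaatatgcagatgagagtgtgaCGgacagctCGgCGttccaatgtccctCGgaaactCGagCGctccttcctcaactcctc
Irx4: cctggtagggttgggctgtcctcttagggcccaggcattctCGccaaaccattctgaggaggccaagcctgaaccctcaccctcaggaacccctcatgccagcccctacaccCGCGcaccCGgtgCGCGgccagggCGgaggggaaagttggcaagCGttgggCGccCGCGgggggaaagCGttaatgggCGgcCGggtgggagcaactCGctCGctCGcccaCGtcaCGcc
The printed stretches held 19 CG dinucleotides each. Over the whole 300-base window, which runs past the start, Irx2 had 25 and Irx4 had 31, against a median of 7 over all promoters, and 18.4% and 10.6% of promoters held as many. No match was found on either strand of the Irx2, Irx3 and Irx4 windows for TAATCC (the PITX motif), ACANNTGT (Iroquois) or CACTTA (NKX2), which occurred in 7.06%, 7.38% and 9.2% of the 32851 promoters. The motif letters are therefore not in these windows, which is all that a missing match shows.

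Cells with 200 to 5500 genes and at most 10% mitochondrial UMIs were kept, 11355 at E12.0 (median 6349 UMIs) and 12744 at E9.5 (median 13460.5 UMIs). The E12.0 label held, since Epcam reached 426.5 CPM and Krt14 680 CPM, whereas the mesenchymal genes Prrx1, Prrx2, Twist1 and Pdgfra stayed between 0.0898 and 0.500 CPM. The libraries shared 51 cell barcodes. The E12.0 cells were grouped into 16 clusters with the Iroquois genes and other TALE genes left out of the features, and clusters were named only from markers that held no Iroquois gene. They comprised 2953 anterior-like, 934 dental-like, 230 initiation knot-like, 459 periderm and suprabasal-like, 1367 posterior-like, 801 salivary gland-like and 289 tongue-like cells, and 4322 cells stayed unnamed. Levels are CPM of summed UMIs with 95% Poisson intervals in parentheses, not divided by gene length. All intervals cover counting error only, not variation between embryos.

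In the E12.0 epithelium the 5 genes divided the zones between them. Irx1 and Irx2 were highest in dental-like cells, Irx3, Irx4 and Irx5 in anterior-like cells, and all 5 were low in posterior-like, salivary gland-like and tongue-like cells. Dental-like cells held 201 CPM of Irx1 (191 to 212) against 20.5 CPM in all other cells, a 9.83-fold difference. Irx2 reached 98.0 CPM (90.9 to 106) there against 17.8 CPM, or 5.52-fold more. The 3 other genes lay lower in dental-like cells than in the rest, at 19.7 against 66.6 CPM for Irx3, 1.53 against 21.7 CPM for Irx4 and 46.2 against 76.8 CPM for Irx5. On the log2 scale these differences were 3.30 (3.19 to 3.40) for Irx1, 2.47 (2.33 to 2.60) for Irx2, -1.76 (-2.01 to -1.52) for Irx3, -3.82 (-4.83 to -2.98) for Irx4 and -0.73 (-0.90 to -0.57) for Irx5. Clustering with no regression gave smaller differences, 1.53 for Irx1, 0.97 for Irx2, -0.45 for Irx3 and -0.27 for Irx5, from 668 dental-like cells. In the main clustering Irx4 differed most from Irx1 and Irx2 although all 3 belong to the same genomic group. Its difference rested on 11 UMIs in dental-like cells and was not recomputed with other clusterings. A rule of size was used in place of a test. It asks for a level at least 1.3-fold higher, after adding 5 CPM to each group, and for detection in 15% or more of the group. In dental-like cells 2 of the 5 genes passed it, Irx1 and Irx2, where 3.22% of 10274 genes did.

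The anterior-like cells showed the opposite arrangement. They held 119 CPM of Irx3 (114 to 124) against 41.2 CPM in all other cells, 47.3 CPM of Irx4 (44.4 to 50.3) against 9.61 CPM, and 124 CPM of Irx5 (119 to 129) against 55.4 CPM. The corresponding log2 differences were 1.53, 2.30 and 1.16. Irx1 lay at 3.08 CPM (2.38 to 3.92), and Irx2 was also lower than in the other cells, at 14.2 CPM (12.6 to 15.9), with log2 differences of -4.02 and -1.04. Irx3, Irx4 and Irx5 passed the rule of size, 3 of 5, where 3.18% of 10242 genes did. Between the zones themselves, Irx1 was 65.4-fold higher in dental-like than in anterior-like cells and Irx2 6.90-fold higher. The anterior-like cells do not cover the whole anterior epithelium. An unnamed Pthlh-led cluster of 1224 cells has Slc4a4, which the paper used to map anterior epithelium, among its leading genes. It held 22.5 CPM of Irx1, 15.1 CPM of Irx2, 48.0 CPM of Irx3, 12.2 CPM of Irx4 and 65.3 CPM of Irx5. Irx6, the remaining member of the Irx3 group, was rare, with 36 UMIs in anterior-like cells and 5 in all others.

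Posterior-like cells held little of any member. Their levels ran from 2.74 CPM of Irx4 to 15.1 CPM of Irx5, and the log2 differences from all other cells lay between -3.45 for Irx3 and -2.19 for Irx2. None of the 5 passed the rule of size, against 3.52% of 10264 genes. Tongue-like cells were similarly low (2.41 to 12.6 CPM), as were salivary gland-like cells (2.33 to 13.8 CPM). The salivary clusters were not alike, since the one led by Fam150b and Col9a1 held 19.9 CPM of Irx1 (15.4 to 25.4) and the one led by Pax9 and Fndc1 held 6.30 CPM (3.67 to 10.1).

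**Figure D1:**
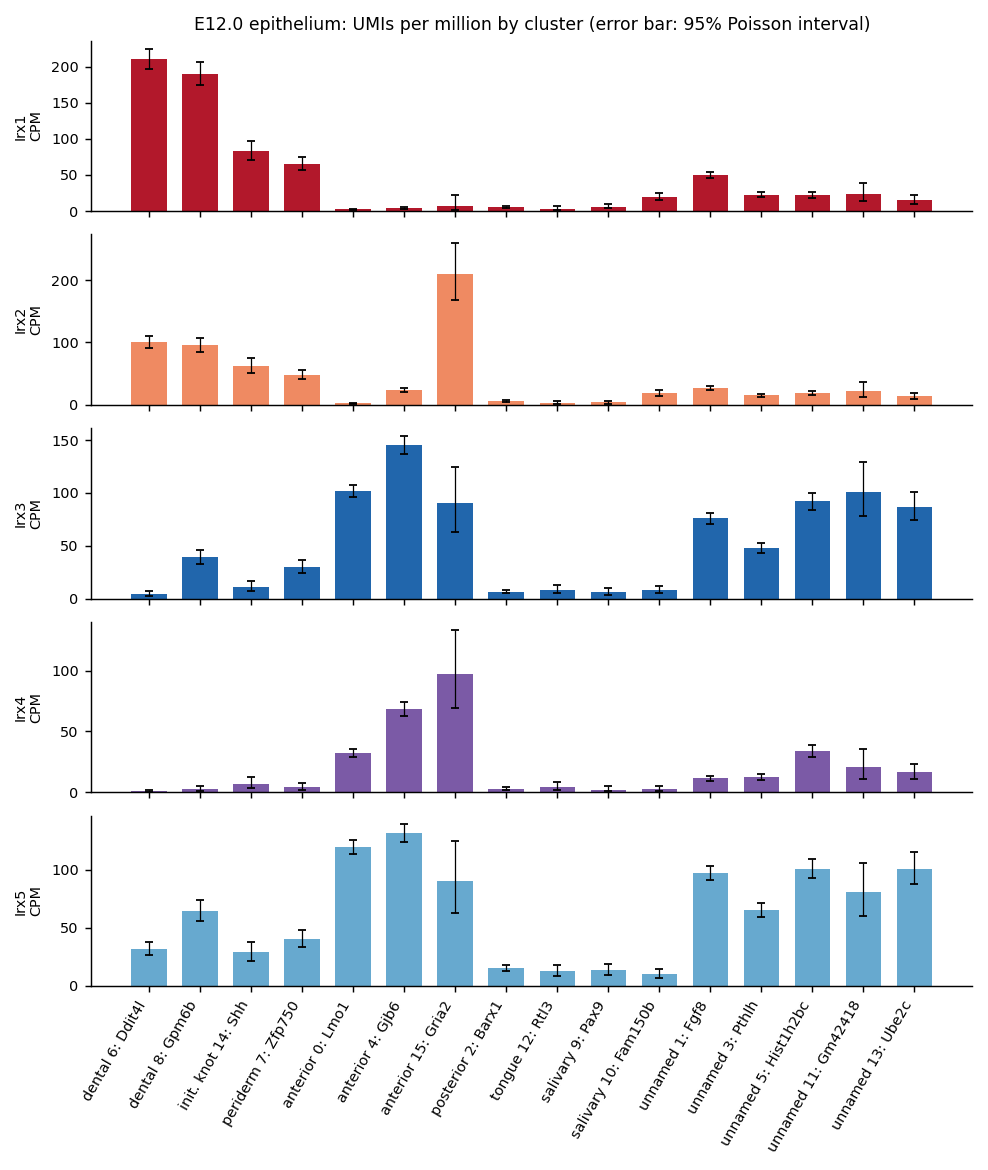
CPM of Irx1 to Irx5 (vertical axes) in each of the 16 E12.0 clusters (horizontal axis, named by zone, cluster number and a leading gene), with bars for the summed level and error bars for 95% Poisson intervals. Irx1 stands at 210.0 and 189.9 CPM in the dental-like clusters and under 8 CPM in the 3 anterior-like ones, whereas Irx2 is highest, at 210.1 CPM, in the anterior-like cluster led by Gria2.

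By single clusters, Irx1 ran from 2.16 to 210.0 CPM. The dental-like clusters led by Ddit4l (502 cells, 210.0 CPM, 196 to 225) and by Gpm6b (432 cells, 189.9 CPM, 175 to 206) headed the order, with overlapping intervals. In the Ddit4l-led cluster Irx1 itself ranked first among the leading genes, and Ddit4l, which came next, is used as its name. The initiation knot-like cluster, which is led by Shh and marks the early tooth signalling centre, followed at 82.8 CPM (70.2 to 97.1), overlapping the periderm and suprabasal-like cluster at 65.2 CPM (56.5 to 74.8). An unnamed cluster of 1533 cells led by Fgf8 and Timp3 came next at 50.2 CPM. Timp3 and Prss23, both among its leading genes, are markers with which the paper mapped the diastema between incisor and molar. Then 5 clusters lay between 15.3 and 23.7 CPM, and the remaining 6, including all 3 anterior-like ones, between 2.16 and 7.50 CPM. Within those last groups the intervals mostly overlapped, so their order could not be set at this depth.

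Below its highest cluster, Irx2 began in the same order, with 100.2 CPM (90.6 to 110.4) in the Ddit4l-led cluster, 95.3 CPM (84.8 to 107) in the Gpm6b-led one, then the initiation knot-like cluster at 62.1 CPM and the periderm and suprabasal-like cluster at 48.1 CPM. The highest level lay elsewhere. An anterior-like cluster of 95 cells led by Gria2, Pcdh9 and Ntng1 held 210.1 CPM of Irx2 (168 to 260), with an Irx2 UMI in 52.6% of its cells. In the same cluster Irx1 had 3 UMIs, or 7.50 CPM (1.55 to 21.9). The other anterior-like clusters held 23.1 CPM (led by Gjb6, which had 4.25 CPM of Irx1) and 2.08 CPM (led by Lmo1) of Irx2, so that the anterior-like clusters spanned a log2 difference of 6.66 (6.01 to 7.35). The Gria2-led cells were shallower than the library as a whole, with a median of 3860 UMIs.

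For Irx3 and Irx5 the order was headed by the Gjb6-led cluster, with 145 CPM (137 to 154) and 132 CPM (124 to 140). The Lmo1-led cluster followed with 102 CPM of Irx3 (96.6 to 108) and 119.8 CPM of Irx5 (114 to 126), the latter overlapping the Gjb6-led cluster narrowly. The direct log2 difference in Irx5, Gjb6-led over Lmo1-led, was 0.14 (0.02 to 0.25). Unnamed clusters led by cell cycle genes (Hist1h2bc or Ube2c) held 92.0 and 87.1 CPM of Irx3 and 100.8 and 100.9 CPM of Irx5, and the Fgf8-led cluster held 75.9 and 97.2 CPM. At the low end the genes parted. Irx3 was lowest in the Ddit4l-led dental-like cluster (4.71 CPM, 2.84 to 7.36), whereas Irx5 was lowest in the Fam150b-led salivary cluster (10.3 CPM, 7.11 to 14.4) and held 32.0 CPM (26.7 to 38.0) in the Ddit4l-led one. Irx4 was highest in the Gria2-led (97.5 CPM, 69.4 to 133) and Gjb6-led (68.2 CPM, 62.7 to 74.1) clusters, whose intervals overlapped. The direct log2 difference of the Gria2-led over the Gjb6-led cluster was 0.516 (0.0086 to 0.985), with a lower bound close above 0. Irx4 was lowest in the Ddit4l-led cluster, at 3 UMIs or 0.744 CPM.

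The dental-like clusters differed in Irx3 and Irx5 but not detectably in Irx1 and Irx2. From the Ddit4l-led to the Gpm6b-led cluster, Irx3 was higher by a log2 difference of 3.04 (2.34 to 3.83), at 38.9 against 4.71 CPM, and Irx5 by 1.01 (0.68 to 1.34), at 64.4 against 32.0 CPM. For Irx1 the difference was -0.15 (-0.30 to 0.01) and for Irx2 -0.07 (-0.29 to 0.15), so a difference larger than these bounds was not seen. The initiation knot-like cells held less of both dental genes than the dental-like cells, by 2.43-fold for Irx1 and 1.58-fold for Irx2.

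Ratios of UMIs between neighbouring genes were compared within each genomic group. Irx5 and Irx3 stayed within a narrow range wherever they were abundant, with 1.04 Irx5 UMIs per Irx3 UMI in anterior-like cells (0.988 to 1.10) and 1.28 in the Fgf8-led cluster. In dental-like cells the ratio was 2.35 (1.92 to 2.88). It was 6.79 (4.18 to 11.6) in the Ddit4l-led cluster and 1.66 (1.32 to 2.09) in the Gpm6b-led one. Such a ratio was not particular to dental-like cells. Posterior-like cells had 2.34 (1.73 to 3.22) and initiation knot-like cells 2.65 (1.56 to 4.68). Where Irx1 was abundant, Irx2 had fewer UMIs than Irx1, but their ratio was not constant. Irx2 UMIs per Irx1 UMI were 0.487 in dental-like cells (0.445 to 0.534) and 0.542 in the Fgf8-led cluster (0.468 to 0.627). The ratio was higher than in dental-like cells in the initiation knot-like cluster, at 0.75 (0.583 to 0.9625). The same held for the periderm and suprabasal-like cluster, at 0.738 (0.593 to 0.916). The highest values came from clusters with few Irx1 UMIs. They were 5.43 in the Gjb6-led cluster (3.77 to 8.03, from 190 and 35 UMIs) and 28.0 in the Gria2-led cluster (9.26 to 139, from 84 and 3 UMIs). Across the 16 clusters the log2 levels with 5 CPM added gave a Pearson correlation of 0.945 (Spearman 0.888) for Irx3 and Irx5 and 0.667 (0.726) for Irx1 and Irx2. Irx4 tracked Irx3 (0.839) and Irx5 (0.766) rather than Irx1 (-0.463) or Irx2 (0.14). These correlations describe clusters of 1 library, which share their source but not their depth. Median UMIs per cell ran from 1146 to 7940.5 over the clusters, and each cluster had the same weight.

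**Figure D2:**
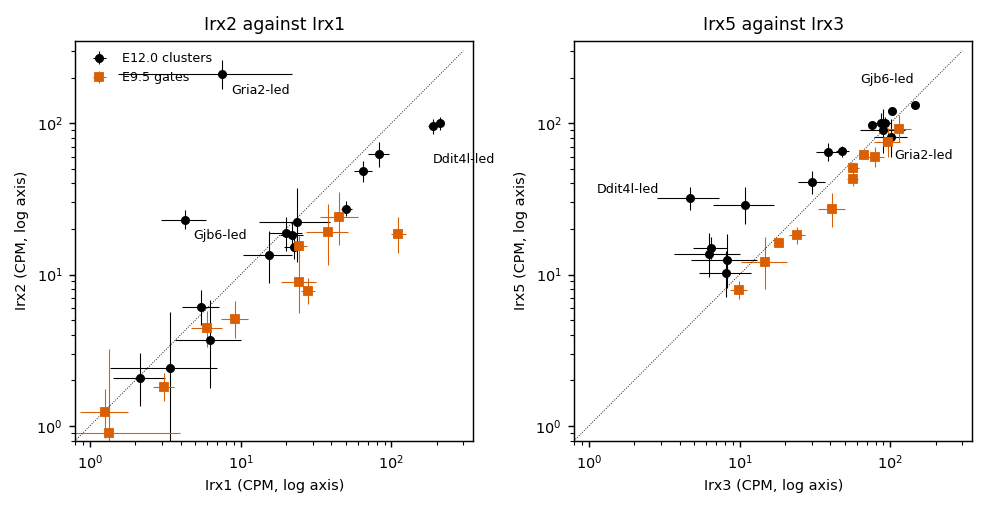
Level of Irx2 against Irx1 (left) and of Irx5 against Irx3 (right), both axes in CPM on log scales, for E12.0 clusters (black circles) and E9.5 gates (orange squares), with 95% Poisson intervals and a dotted line of equal levels. Most Irx3 and Irx5 points keep near the line, and the Ddit4l-led cluster lies off it at 6.79 Irx5 UMIs per Irx3 UMI. Of the Irx1 and Irx2 points, the Gria2-led cluster lies farthest from the line, at 28.0 Irx2 UMIs per Irx1 UMI (84 and 3 UMIs).

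Genes with the most similar pattern over these clusters were ranked among 8515 genes with at least 20 CPM in a cluster. Irx3 and Irx5 were each other's nearest gene. Next to Irx5 came Crnde (0.942), a noncoding transcript on the opposite strand that lies 1504 bases from Irx5 (chromosome 8, 92326033 to 92356120). It held 33.0 CPM in the Gjb6-led cluster and 16.4 CPM in the Ddit4l-led one. Then followed Olfm1 (0.917), Asxl3 (0.901) and Plppr1 (0.874). Irx3 shared Plppr1 (0.902) and Asxl3 (0.899) and had Col12a1 (0.887) and Cacna1h (0.872) besides. Irx4 was most like Lmx1b (0.969), a LIM homeobox gene, followed by Slc35b3, Ckb, Rprml and C130021I20Rik, the last an antisense transcript 681 bases from Lmx1b. Both Irx4 and Lmx1b were near 0 in the Ddit4l-led cluster, where Lmx1b had no UMI. Irx1 was most like Zfp385c (0.914), Flrt3 (0.883), Gpm6b (0.869), Arhgdig (0.867) and Eif1a (0.852), and Irx2, whose highest correlation was weaker, was most like Pus7 (0.856), Sdccag3, Serinc5, Zfos1 and Dusp10. The correlation ignores the size of the range. Pus7 ran from 33.8 to 60.2 CPM, Sdccag3 from 32.0 to 47.5 CPM and Eif1a from 127 to 243 CPM over the clusters. Dusp10 varied more, from 2.11 to 20.0 CPM, and Irx2 itself ran from 2.08 to 210.1 CPM.

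Joint detection within single cells was compared after each cell was thinned to 4100 UMIs, which left 10331 E12.0 cells. At this depth an Irx1 UMI was found in 52.6% of dental-like cells (68.7% unthinned, median 7278 UMIs) and in 0.761% of anterior-like cells (1.69% unthinned, median 6667 UMIs). Irx4 went the other way, with 17.3% of anterior-like and 0.445% of dental-like cells. The part of free RNA in these shares was not tested. Irx1 and Irx2 were found together in 294 cells, 3.50 times (3.12 to 3.92) the number expected from their separate shares. Irx3 and Irx5 were together in 792 cells, 1.54 times (1.44 to 1.64) the expected number.

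Pairs of Irx1 or Irx2 with Irx3 or Irx5 met less often than expected or near expectation. The ratio was 0.668 (0.564 to 0.784) for Irx1 and Irx3, 0.725 (0.603 to 0.865) for Irx2 and Irx3, 0.898 (0.787 to 1.02) for Irx1 and Irx5, and 0.930 (0.801 to 1.07) for Irx2 and Irx5. The lowest value belonged to Irx1 and Irx4, the outer genes of 1 group. They were found together in 12 cells, 0.155 times (0.0799 to 0.27) the expected number, and Irx2 and Irx4 in 39 cells, 0.653 times (0.465 to 0.892). Across the groups, Irx4 was found with Irx3 at 1.69 times (1.496 to 1.906) and with Irx5 at 1.49 times (1.32 to 1.67) the expected number.

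When the expected number was summed over clusters, so that differences between clusters no longer counted, most ratios moved toward 1. Irx1 and Irx2 kept 1.42 (1.26 to 1.59) and Irx3 and Irx5 1.13 (1.06 to 1.21). In the zones where each pair was abundant the intervals included 1, with 1.14 (0.9899 to 1.303) for Irx1 and Irx2 in dental-like cells and 1.09 (0.992 to 1.19) for Irx3 and Irx5 in anterior-like cells. All joint detection intervals cover the joint share only and take the expected share as fixed. One that includes 1 therefore does not show that a departure from expectation is absent. Irx1 and Irx2 exceeded expectation in the unnamed Fgf8-led (2.13, 1.52 to 2.89) and Pthlh-led (4.16, 2.43 to 6.64) clusters and, from 4 cells, in posterior-like cells (8.48, 2.31 to 21.7). Over all cells, Irx1 and Irx4 kept 0.398 (0.206 to 0.695). The ratios of the other 7 pairs lay between 0.896 and 1.06 with intervals that included 1. Called doublets made up 5.03% of dental-like and 5.11% of anterior-like cells. They were more frequent in the other named zones, from 6.36% of posterior-like to 10.4% of initiation knot-like cells. Without called doublets the ratio over all cells was 3.55 for Irx1 and Irx2 and 1.55 for Irx3 and Irx5.

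**Figure D3:**
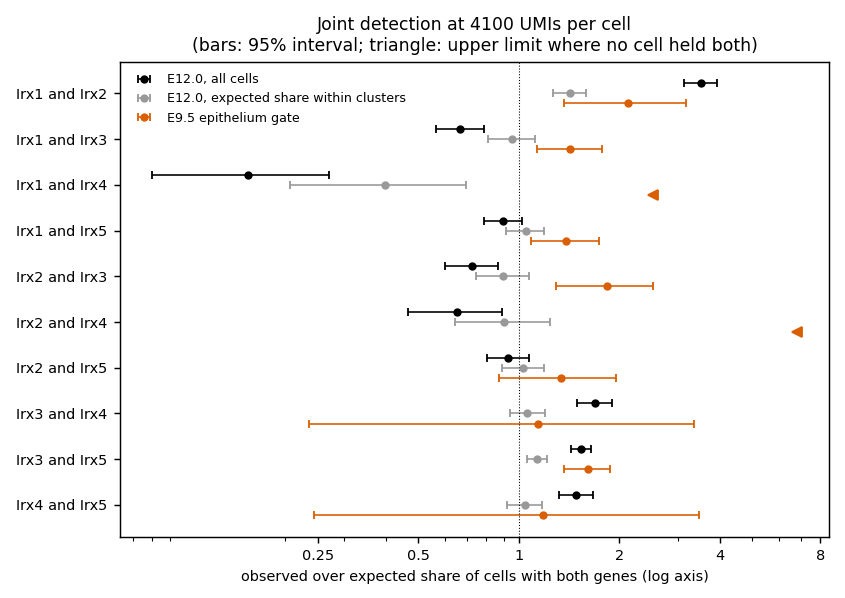
Observed over expected share of cells with UMIs of both genes (horizontal log axis) for the 10 pairs (vertical axis) at 4100 UMIs per cell, for all E12.0 cells (black), E12.0 with the expected share taken within clusters (grey) and the E9.5 epithelium gate (orange), with 95% intervals and triangles for upper limits. In E12.0 cells Irx1 and Irx2 lie at 3.50, and Irx1 and Irx4 at 0.155.

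Counted as pairs of genes in the thinned cells, 50.6% of dental-like cells held UMIs of Irx1 or Irx2 only. UMIs of Irx3 or Irx5 only were held by 7.02%, and 14.8% held both. Among anterior-like cells the shares were 1.85%, 56.3% and 2.61%. Cells with both were most frequent in the Gpm6b-led dental-like cluster, at 20.6%, and made up 10.0% of the Ddit4l-led one. The Fgf8-led cluster, with 10.1%, contributed 145 of the 514 cells that held both. In posterior-like cells 90.2% held no UMI of the 4 genes. These shares depend on how often each gene is detected and were not set against an expected share. They therefore do not show whether the pairs exclude or accompany each other in single cells, and a missing UMI does not show absence.

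The members were also set against marker genes of the zones in single cells. Irx1 was found more often than expected with Ntrk2, a neurotrophin receptor (3.13 times, 2.73 to 3.56), and with Shh (2.35 times). It was found less often with the anterior markers Cxcl14 (0.349) and Tfap2b (0.272) and the posterior marker Dmrt2 (0.168, from 7 cells). Irx2 went the same way, at a smaller size for Ntrk2 (2.17) and Tfap2b (0.546) and at a like size for Shh (2.33). Irx3, Irx4 and Irx5 were found more often with Tfap2b, at 1.55, 1.84 and 1.41 times, and less often with Sox2, an oral progenitor gene, at 0.435, 0.196 and 0.575 times. Irx1 and Irx2 were found more often with Sox2, at 1.62 (1.45 to 1.81) and 1.29 (1.12 to 1.49) times. Irx3 and Irx5 were near expectation with Ntrk2 (0.868 and 0.952), whereas Irx4 was at 0.197 (0.0946 to 0.363). Dmrt2 was low with every member, from 0.156 for Irx3 to 0.375 for Irx2.

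At E9.5, cells were gated by marker UMIs. The epithelium gate, with Epcam and Cdh1, held 2477 cells (median 11985 UMIs) and the mesenchyme gate, with Prrx1, Prrx2, Twist1 and Pdgfra, 4555 cells (median 13873 UMIs). Of the other cells, 3815 entered no gate, and 579 of the 764 mesoderm core cells, gated on Tcf21, Msc, Myf5 and Tbx1, were also in the mesenchyme gate. Irx1, Irx2, Irx3 and Irx5 were higher in epithelium than in mesenchyme, and Irx4 was low in both. Irx1 had 35.5 CPM (33.4 to 37.7) against 3.68 CPM, a log2 difference of 3.27 (3.06 to 3.49). Irx2 had 12.2 CPM (11.0 to 13.5) against 2.35 CPM, or 2.38 (2.10 to 2.67). Irx3 had 65.3 against 19.4 CPM, or 1.75 (1.64 to 1.85), and Irx5 had 54.4 against 16.6 CPM, or 1.71 (1.60 to 1.83). For Irx4 the levels were 1.34 and 1.80 CPM, with a difference of -0.42 (-0.97 to 0.11) that included 0. Irx1, Irx3 and Irx5 passed the rule of size, 3 of the 4 members compared, where 16.6% of 9847 genes did. Irx4 was too low in both gates to be compared. In the blood gate of 48 cells, which should lack these factors, Irx1, Irx3 and Irx5 had 1 UMI each (1.61 CPM, median 15535 UMIs per cell), and Irx2 and Irx4 had none, which allows up to 3 UMIs.

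Within the E9.5 epithelium, Irx1 was highest in the Pax1-positive cells. Pax1 marks pharyngeal pouch endoderm. The 217 cells with a Pax1 UMI held 204 CPM of Pax1, which follows from the gate itself, and 12.0 CPM of the surface ectoderm gene Trp63. They had 111 CPM of Irx1 (99.4 to 124), against 27.8 CPM (25.8 to 29.9) in the 2077 epithelial cells without Pax1, Foxa2 or Sox17 UMIs, a log2 difference of 2.00 (1.81 to 2.19). Irx2 was higher by 0.65 (0.20 to 1.07), at 18.5 against 11.8 CPM, and Irx3 by 0.27 (0.06 to 0.47), at 79.4 against 65.9 CPM. Irx5 differed by 0.08 (-0.16 to 0.31). Irx1 and Irx2 passed the rule of size, 2 of the 4 members compared, where 3.64% of 9818 genes did. The embryonic globin Hbb-y stood at 1285 CPM in the Pax1-positive cells and 154 CPM in the others, and Hba-x at 947 and 143 CPM, and the part of this in the difference was not tested. The 183 cells with Foxa2 or Sox17 but no Pax1 UMI had 24.4 CPM of Irx1 (18.5 to 31.6), overlapping the cells without endoderm markers, and had less Irx3 (41.1 CPM) and Irx5 (26.9 CPM). They also held 65.9 CPM of Trp63, against 57.0 CPM in the cells without endoderm markers, so their gate does not set them apart as endoderm.

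The epithelium without endoderm markers was divided by Vgll2, a marker of the oral side, and Tfap2b, a marker of the aboral side. The 91 cells with Tfap2b only exceeded the 960 cells with Vgll2 only in Irx2, at 24.0 against 7.83 CPM (log2 difference 1.62, 0.94 to 2.24), in Irx1, at 45.2 against 28.0 CPM (0.69, 0.23 to 1.12), and in Irx3, at 95.9 against 66.4 CPM (0.53, 0.22 to 0.82). The share of thinned cells with an Irx1 UMI, a measure unlike CPM, did not show the Irx1 order. It was 8.79% of Tfap2b-only cells (3.87 to 16.6) and 9.88% of Vgll2-only cells (8.06 to 12.0). The first interval is wide, so this share could not decide the order. Irx5 differed by 0.28 (-0.07 to 0.61). Irx4 had 5 UMIs in the first group and 8 in the second, or 4.61 against 0.585 CPM. The 72 cells with both markers had the highest Irx3 of all gates, 114 CPM (94.4 to 136), and 92.1 CPM of Irx5, with intervals that overlapped those of the Tfap2b-only cells.

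**Figure D4:**
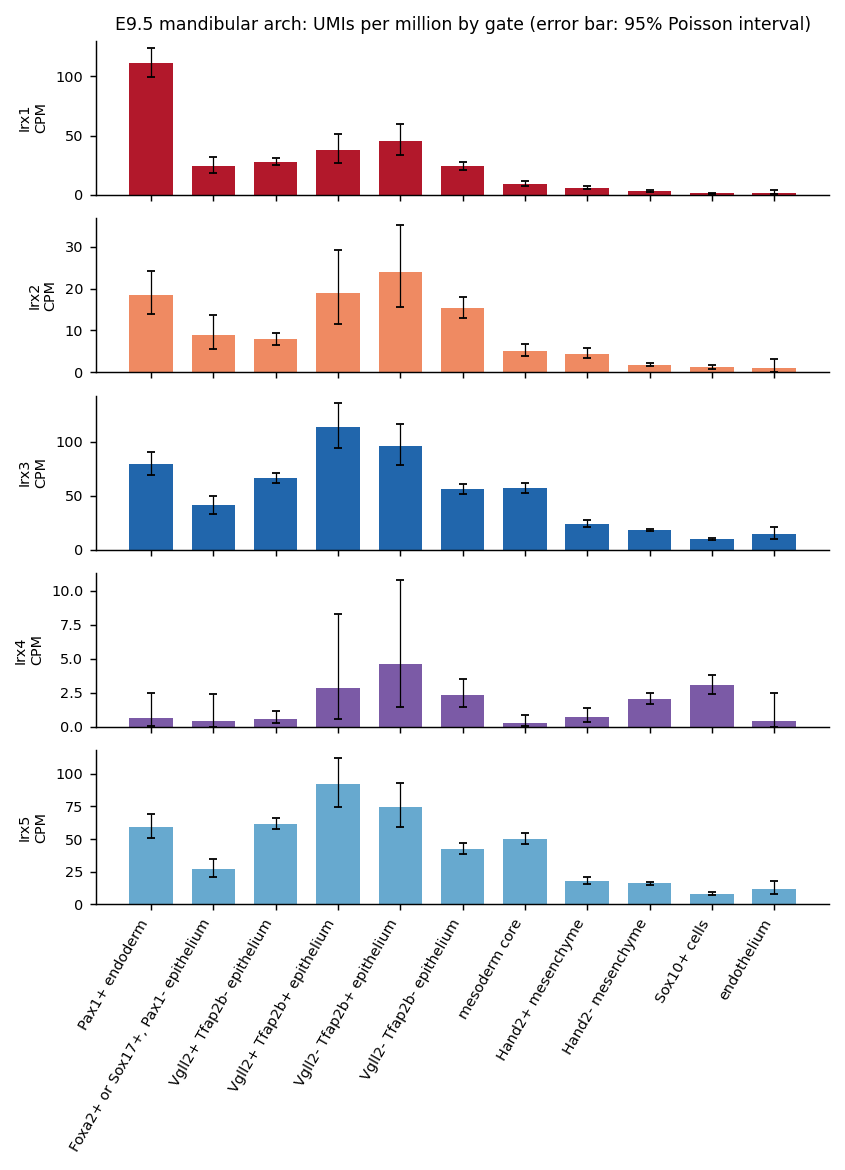
CPM of Irx1 to Irx5 (vertical axes) in E9.5 gates (horizontal axis), with bars for the summed level and error bars for 95% Poisson intervals. Irx1 peaks at 111 CPM in Pax1-positive endoderm, and Irx3 and Irx5 reach 56.9 and 50.2 CPM in the mesoderm core against 24.1 and 18.2 CPM in Hand2-positive mesenchyme.

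Outside the epithelium, Irx3 and Irx5 were highest in the mesoderm core, from which the jaw muscles form. Their levels there were 56.9 CPM (52.4 to 61.8) and 50.2 CPM (45.9 to 54.7), against 13.1 and 10.8 CPM in the 3976 mesenchyme cells without core markers. The log2 differences were 2.13 (1.96 to 2.29) and 2.21 (2.04 to 2.39). Irx1 was also higher, at 9.21 against 2.70 CPM, but stayed below its level in any epithelial gate. The rule of size was passed by Irx3 and Irx5, 2 of the 4 members compared, and by 11.0% of 9471 genes. Irx6, rare at both stages, had 38 UMIs (3.72 CPM) in the mesoderm core and 2 in the mesenchyme without it. Hand2-positive mesenchyme, the distal part, held more Irx1 (5.99 against 3.09 CPM) and Irx2 (4.43 against 1.82 CPM) than Hand2-negative mesenchyme, and the Sox10-positive cells held the highest Irx4 outside the epithelium, 3.05 CPM (2.41 to 3.81).

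In the E9.5 epithelium gate, pairs of Irx1 or Irx2 with Irx3 or Irx5 did not fall below expectation. In the epithelium gate thinned to 4100 UMIs (2402 cells), Irx1 and Irx2 were found together in 24 cells, 2.13 times (1.37 to 3.16) the expected number, and Irx3 and Irx5 in 152 cells, 1.61 times (1.37 to 1.88). Of the pairs across the groups, 3 were also above expectation, at 1.43 times (1.13 to 1.77) for Irx1 and Irx3, 1.38 (1.09 to 1.73) for Irx1 and Irx5 and 1.83 (1.29 to 2.52) for Irx2 and Irx3. For Irx2 and Irx5 the interval included 1 (1.33, 0.873 to 1.95). For Irx1 and Irx3 the E9.5 interval and the E12.0 interval (0.564 to 0.784) did not overlap. These sets are unlike, since the E12.0 interval covers all zones together. With the expected number summed over clusters, the E12.0 interval of this pair included 1. Whether the pair changed between stages within a population was not tested. Without endoderm markers, the Irx1 and Irx2 ratio was 1.81 (0.990 to 3.03), with 1 inside its interval, the Irx1 and Irx3 ratio 1.32 (0.982 to 1.72) and the Irx1 and Irx5 ratio 1.45 (1.09 to 1.89). In mesenchyme, where the genes were rare, Irx3 and Irx5 met in 60 cells, 3.28 times (2.51 to 4.21) the expected number, and in the mesoderm core in 40 cells, 1.90 times (1.37 to 2.57). Irx4 was detected too rarely for its pairs to be read.

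In E9.5 epithelium without endoderm markers, Irx1, Irx2, Irx3 and Irx5 all met Sox2 less often than expected, at 0.648 (0.457 to 0.890), 0.617 (0.353 to 0.999), 0.785 (0.643 to 0.947) and 0.775 (0.630 to 0.942) times. The ratio of Irx1 with Vgll2 was 1.15 (0.915 to 1.42). Irx3 exceeded expectation with Tfap2b, at 1.74 times (1.11 to 2.61) from 23 cells, and Irx5 with Vgll2, at 1.27 times (1.11 to 1.46). Of the cells without endoderm markers, 6.82% held Irx1 or Irx2 alone, 28.4% held Irx3 or Irx5 alone and 5.88% held both. In Pax1-positive cells the shares were 20.1%, 23.8% and 14.95%. These shares were not set against an expected share either. The number of Irx5 UMIs per Irx3 UMI ran from 0.656 to 0.927 in all gates but blood. Anterior-like cells at E12.0 had a ratio of 1.04 (0.988 to 1.10). Of these, the Gjb6-led cluster, at 0.906 (0.834 to 0.985), lay within the E9.5 range. Some E9.5 intervals also overlapped that of the anterior-like cells, such as 0.843 to 1.02 in Vgll2-only cells.

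**Figure D5:**
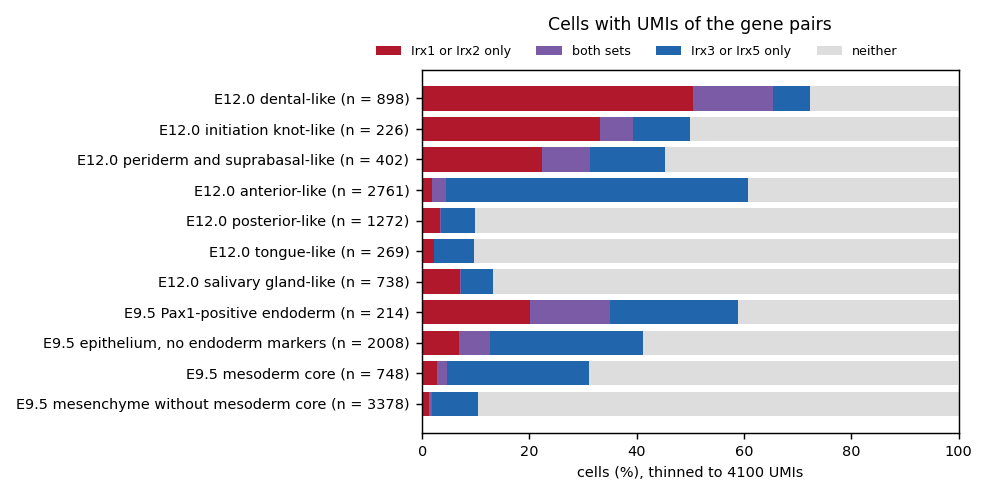
Share of cells (horizontal axis, %) with UMIs of Irx1 or Irx2 only (red), of both pairs (purple), of Irx3 or Irx5 only (blue) or of neither (grey), after thinning to 4100 UMIs, in E12.0 zones and E9.5 gates (rows, with the number of cells). Dental-like cells are mostly red (50.6%) and anterior-like cells mostly blue (56.3%), whereas the Pax1-positive cells hold 20.1% red, 14.95% purple and 23.8% blue.

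Between the stages, Irx4 differed most. All E12.0 cells together held 19.9 CPM of Irx4 over the genes listed in both libraries, against 1.51 CPM in the E9.5 epithelium without endoderm markers, a log2 difference of 3.72 (3.26 to 4.23). Irx2 differed by 1.09 (0.92 to 1.27), Irx1 by 0.42 (0.30 to 0.54) and Irx5 by 0.39 (0.31 to 0.48), and Irx3 by -0.08 (-0.16 to 0.000333). None of the 5 passed the rule of size, where 23.9% of 10465 genes did. Irx2 and Irx4 missed it by detection, in 11.9% and 11.3% of E12.0 cells. Irx5 missed the fold narrowly, at 1.289 with 5 CPM added, and Irx1 missed both, at 1.286 and in 14.2% of cells. Set against the whole E9.5 epithelium gate, the Irx1 difference was 0.06 (-0.04 to 0.17).

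Other TALE homeobox genes were compared by the same rule. Of Meis1 to Meis3, Pbx2 to Pbx4, Pknox1, Pknox2, Tgif1, Tgif2 and Mkx, none passed the rule of size in dental-like or anterior-like cells or in Pax1-positive endoderm. Meis1 and Meis2 were lower in dental-like cells, as Irx3, Irx4 and Irx5 were, at 33.0 against 143.5 CPM and 241.8 against 907 CPM, and Meis1 was also lower in anterior-like cells, at 85.0 against 151 CPM. In posterior-like cells, where the Iroquois genes were low, Meis1 (274 against 114 CPM) and Pknox1 (42.4 against 31.5 CPM) passed, where 3.52% of all genes did. In E9.5 epithelium against mesenchyme, Meis1, Meis2 (524 against 180.4 CPM), Pknox1 and Tgif1 (58.4 against 30.9 CPM) passed, and in the mesoderm core Pknox1, Pknox2 and Tgif1 did. Of all genes, 16.6% and 11.0% passed in these comparisons. Between the stages Meis1, Meis2, Pbx2, Pknox1, Tgif1 and Tgif2 were higher at E12.0 by the rule, from Tgif2 at 79.8 against 55.5 CPM to Meis1 at 134 against 39.9 CPM. Of all genes, 23.9% were. Of the 13 protein-coding genes that start within 500 kb of a member, 8 were high enough to be compared in anterior-like cells, and Mmp2, a matrix metalloproteinase gene, was the one that passed, at 39.1 against 16.4 CPM. There 3.18% of all genes passed. Mmp2 also passed in the mesoderm core (52.2 against 38.8 CPM), as 1 of 9 neighbours compared, where 11.0% of all genes did. Rpgrip1l and Ndufs6 passed in E9.5 epithelium against mesenchyme, 2 of 9 compared, where 16.6% of all genes did. Fto and Rpgrip1l were higher at E12.0 than at E9.5 by the rule, 2 of 9 compared, where 23.9% of all genes were. Both shares of neighbours lie near those of all genes. None of the neighbours passed in dental-like or posterior-like cells or in Pax1-positive endoderm.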

How the data were processed

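Single-cell RNA was measured in 1 E12.0 and 1 E9.5 library. The authors deposited raw UMI counts per gene and cell, made with Cell Ranger on mm10 (GRCm38). The processing notes name version 2.0.0, whereas the deposited matrix headers name 3.1.0 for E12.0 and 6.1.2 for E9.5. The genes, gene lists, gates and comparisons were chosen with earlier results of these data known. Gates for mesoderm core, Sox10-positive cells, endothelium and blood were set after the files were seen.

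Cells with 200 to 5500 genes and at most 10% mitochondrial UMIs were kept (77936364 UMIs at E12.0, 166191431 at E9.5). E12.0 cells were clustered with Seurat 5.3.0 and sctransform 0.4.2 in R 4.3.3 (30 components, resolution 0.9, 3000 variable genes, from which 10 names, the Iroquois and other TALE genes, were left out). Scrublet in scanpy 1.11.5 called 661 E12.0 doublets (5.82%) and 331 at E9.5 (2.60%), which stayed in. A cluster could be named where at least 3 markers of a list were raised. The name was withheld where the leading genes held more markers of another list or at least 3 cell cycle genes. It was also withheld in shallow clusters with no marker of the list among the leading genes.

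With 1 library per stage no test was made. Counts per group were given as CPM with exact Poisson intervals, and folds with exact 95% intervals (scipy 1.17.1). For joint detection, the exact 95% interval of the joint share was divided by the expected share, which was taken as fixed. The recovery of known fold changes was checked on simulated counts. Named genes were the 5 members, Irx6, Irx3os, the other TALE genes, the 5 genes nearest to each member by pattern, coding neighbours and 10 markers fixed as partners. Some of the listed genes are not reported here. The RefSeq promoter table matched 3 of the 5 members, Irx2, Irx3 and Irx4.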

Additional observations from a re-analysis of the deposited data

How the results depend on the processing

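Of 94 recomputed values, 72 stayed within the main value's interval, 22 moved further and 0 changed sign. Counts of genes that passed the rule of size were not recomputed. For the dental-like comparison the log2 difference of Irx1 was 3.41 with each cell weighted equally and also without called doublets, and 3.97 with unnamed clusters left out, where Irx2 was 2.62. With zones taken from marker scores, the values for Irx1, Irx2, Irx3 and Irx5 were 2.91, 1.94, -0.61 and -0.28. With no regression in the clustering they were 1.53, 0.97, -0.45 and -0.27. There the cluster with the highest Irx1 (Shh-led, 561 cells, 153 CPM) stayed unnamed and 668 cells were dental-like. At most 5% mitochondrial UMIs gave 3.01 for Irx1, -2.44 for Irx3 and -0.91 for Irx5, from 319 dental-like cells. Joint detection asking for 2 UMIs of each gene was 6.46 for Irx1 with Irx2 and 2.51 for Irx3 with Irx5 in E12.0 cells, and 3.64 and 2.24 in the E9.5 epithelium. With expectation summed over clusters it was 1.42 and 1.13, since differences between clusters no longer count. The Irx1 difference between stages was 0.42 without cells that held endoderm markers. Otherwise the cause was not tested. Leaving out unnamed clusters, adding the initiation knot, the looser E9.5 gate and leaving out endoderm cells were chosen after seeing the data. No paired analysis was possible because each stage has 1 library. Each stage is 1 pool of embryos, so variation between embryos is unknown, and at these depths Irx4 and its pairs at E9.5 could not be resolved.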
